A study of Mus musculus with 19 samples.

Results

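The genes described here encode the protein core of the spliceosomal small nuclear ribonucleoproteins (snRNPs), the LSm proteins and the PRPF splicing factors, together with the SF3A subunits of the U2 particle. Members were every row of the count tables whose symbol was Snrp plus letters or digits, Snrnp plus a number, Lsm plus a number, Prpf plus a number (with or without a final letter), or Sf3a1 to Sf3a3. The rule used names only and no measured value, but it was chosen with earlier results of these data known. It found 49 of 54352 symbols. They comprise 8 genes of the Sm ring, 6 of the U1 particle, 5 of U2, 9 of U4/U6, U5 and their tri-snRNP, 4 further PRPF genes, 3 of the minor U11/U12 particle, 8 of the LSm rings, 2 of U7 and 3 other LSM genes. The last, Snrpert, is annotated as a processed pseudogene of Snrpe.

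Polyadenylated RNA of the embryonic stem cell line TT2 of the mouse, which grows on inactivated embryonic fibroblasts (feeder cells), was measured with Smart-seq2, which copies whole transcripts and carries no molecular identifiers. The control group held 2 libraries of untreated cells in 2D culture, labelled 54 h. The PlaB group held 2 libraries of the same line in 2D culture, treated for 6 h with 20 nM pladienolide B (PlaB), a splicing inhibitor whose target is SF3B in the U2 particle, after 48 h of growth. The other 15 libraries were blastoids, aggregates of stem cells that resemble a blastocyst, grown in 3D microwells, with 3 libraries from each of days 1, 2, 3, 4 and 5. The blastoid labels also list the 6 h PlaB treatment, and all groups share the TT2 line, for which the labels give no genetic change. Feeder cells were part of the culture, so RNA of 2D libraries could come from stem cells or fibroblasts, and in these bulk samples fewer cells of a type and less RNA per cell cannot be told apart. The labels do not say whether replicates were separate cultures, so p-values measure the spread between these libraries, which may be technical.

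Each snRNP pairs a small nuclear RNA with a ring of Sm proteins and with proteins of its own. U1 recognises the start of an intron, U2 its branch point, and the U4/U6 and U5 tri-snRNP then joins before the spliceosome is activated. LSm proteins form related rings, on U6 RNA in the nucleus and on messenger RNA that is being degraded in the cytoplasm. Fast-dividing cells such as embryonic stem cells need a steady supply of these proteins.

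Several members have near-identical copies elsewhere in the genome, so their counts depend on how reads were assigned. Snrpe encodes the E protein of the Sm ring, and its processed pseudogene Snrpert has no intron and matches it at 98.9% identity over the whole coding sequence (GRCm38, GENCODE M21).

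Snrpg, which encodes the G protein of the same ring (chr6:86371304-86379328, plus strand), is shown because its coding sequence of 231 bases stands letter for letter in the processed pseudogene Gm8186 (chr17:26098991-26099221), so that coding reads cannot be assigned by sequence. No letter is in capitals because none differs.
Snrpg: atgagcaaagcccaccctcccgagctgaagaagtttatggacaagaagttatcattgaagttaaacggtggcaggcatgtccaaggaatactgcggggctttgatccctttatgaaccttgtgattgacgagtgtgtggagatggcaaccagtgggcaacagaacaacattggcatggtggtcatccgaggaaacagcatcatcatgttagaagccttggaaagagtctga

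Snrpert took between 3.94% and 5.92% of the counts of Snrpe and Snrpert together in all 19 libraries, with a median of 4.64%. Gm8186 took between 23.55% and 32.27% of the counts of Snrpg and Gm8186. In all, 13 members had a copy of at least 95% identity over at least 50% of their coding sequence. They were Lsm5, Lsm6, Lsm7, Lsm12, Snrpa, Snrpc, Snrpd1, Snrpd2, Snrpe, Snrpert, Snrpf, Snrpg and Snrpn. The copies of Snrpa held 51 counts over all libraries against 8100 for Snrpa itself, and those of Snrpc 315 against 5377.

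The 250 bases before the annotated start were found for 40 members (RefSeq, GRCm38.p6). Some genes have several annotated starts, and a gene was counted if any of its windows held the letters. The letters CCGGAAG, the core of the site bound by ETS-family transcription factors, stood on either strand for 12 of these 40 members (30.0%), against 7.83% of 27025 genes. These letters hold the pair CG, of which windows of all genes held a median of 6. Members held a median of 19 if they rose after PlaB, 21 if they fell and 15 if they did not pass. For members the window with the most pairs was taken. The part of CG pairs in the ETS shares was not tested. The letters TATAAA, which occur in the TATA box, stood in windows of 3 members (7.5%, against 14.33%). They were counted at any distance from the start, so they need not mark a TATA box. These motifs do not overlap each other. For 3 members that moved far after PlaB a window is shown, with the motif in capitals.
Snrpc, 250 bases upstream (chr17:27839837-27840086, plus strand), which rose: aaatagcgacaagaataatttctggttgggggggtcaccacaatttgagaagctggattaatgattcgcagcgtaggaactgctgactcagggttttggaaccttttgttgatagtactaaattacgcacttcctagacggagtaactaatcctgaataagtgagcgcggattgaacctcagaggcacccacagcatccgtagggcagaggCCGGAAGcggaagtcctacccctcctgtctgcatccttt
Snrpa, 250 bases upstream (chr7:27196272-27196521, minus strand), which rose: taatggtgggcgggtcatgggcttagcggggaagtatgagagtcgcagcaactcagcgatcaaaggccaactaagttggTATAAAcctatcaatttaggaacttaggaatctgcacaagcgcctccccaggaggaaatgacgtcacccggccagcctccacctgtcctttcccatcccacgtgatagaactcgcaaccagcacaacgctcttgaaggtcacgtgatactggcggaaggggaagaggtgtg
Snrnp48, 250 bases upstream (chr13:38204689-38204938, plus strand), which fell: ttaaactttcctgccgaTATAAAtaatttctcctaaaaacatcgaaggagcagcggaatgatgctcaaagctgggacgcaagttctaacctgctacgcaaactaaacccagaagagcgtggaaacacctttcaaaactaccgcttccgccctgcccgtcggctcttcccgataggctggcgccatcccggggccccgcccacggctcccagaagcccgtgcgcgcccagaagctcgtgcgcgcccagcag
The ETS letters stand in the window of Snrpc, and TATAAA stands in those shown of Snrpa and Snrnp48. In both of these, TATAAA lies nearer the far end of the window than the annotated start. Snrpa has another annotated start, whose window (chr7:27195761-27196010, minus strand) holds neither motif. Of the members with a window, the ETS letters stood in 4 of 13 that rose after PlaB and in 4 of 14 that fell.

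Libraries held between 2515381 and 4118725 counts in 2D and between 3684787 and 7607021 in blastoids, and members took between 0.613% and 1.033% of them. Mitochondrial genes took 5.741% and 6.179% of the counts in control, 9.139% and 9.378% after PlaB, and from 2.605% to 4.918% on day 1. Day 3 replicate 3 stood apart, with 13.49% mitochondrial counts and 6883 CPM in members together, against 12013 and 10630 in the other day 3 libraries. CPM are counts scaled to a common library size, here within 2D culture or within blastoids. The marker sums below are scaled in the same way, so those of 2D culture and of blastoids do not share a scale. A GC index also moved with the groups. It is the median log2 deviation from the mean of all libraries over the genes richest in GC, minus that over the genes poorest in GC, each the outer of 3 equal classes. It was -1.013 and -0.844 in the control libraries and 0.093 and 0.235 in the PlaB libraries. Day 1 ranged from 0.479 to 1.1, day 2 from 0.131 to 0.216, day 3 from -1.1 to -0.407, day 4 from 0.369 to 0.576, and day 5 from -0.604 to 0.208. The summed CPM of 20 feeder fibroblast markers was 4690 and 5820 in control, 10500 and 12400 after PlaB, from 1070 to 1830 on day 1 and from 415 to 508 on day 5. In control, 1 of these markers was at 0, and in each blastoid group 2 were. All 8 stem cell markers were detected in every group, at a summed level of 19800 and 22100 CPM in control, 14400 and 14500 after PlaB, 4990 to 6380 on day 1, 8010 to 20800 on day 3 and 4800 to 9490 on day 5. The summed CPM of 7 trophectoderm markers was 72 to 98 in control, 161 to 172 after PlaB, 297 to 418 on day 1, 53.1 to 78.6 on day 3 and 1080 to 2040 on day 5.

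The first comparison asked how 6 h of PlaB changed these genes in 2D culture. The set split: 16 members rose and 17 fell of 44 that passed the low-count filter, while 25.9% of all 11183 tested genes rose and 25.8% fell (51.7% either way). The shares of members were 36.4% and 38.6%. The median log2 fold change of members was -0.18, against 0.00 for all tested genes, with a range from -1.51 to 3.63. The rises reached larger sizes than the falls. Levels below are CPM scaled within the fit of the comparison, fold changes are log2 with SE, and adjusted p-values come from edgeR's quasi-likelihood test with Benjamini-Hochberg adjustment over all tested genes.

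The Sm ring did not move as a unit. Snrpb encodes the B protein of the ring (chromosome 2, 130171414 to 130179403). It stood at 36.1 and 58.6 CPM in the control libraries and at 344 and 271 CPM in the PlaB libraries. The groups did not overlap, and the change was 2.7 ± 0.18 (adjusted p = 1.12e-11). Snrpe went the other way, with 1250 and 1040 CPM in control and 623 and 706 CPM after PlaB. Its change was -0.79 ± 0.13 (adjusted p = 3.02e-06). Snrpd1, which encodes the D1 protein of the ring, fell by 0.54 ± 0.12 (adjusted p = 0.00039), and Snrpg fell by 0.45 ± 0.13 (adjusted p = 0.00427). Snrpd2 (0.28, adjusted p = 0.0638) and Snrpd3 (-0.13, adjusted p = 0.429) did not pass. The pseudogene Snrpert had a change of -0.77 ± 0.20 (adjusted p = 0.00121), beside the -0.79 of Snrpe.

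Snrpn had the smallest adjusted p of all members. It encodes the N protein, a relative of the B protein best known from neurons, and lies in an imprinted region (chromosome 7, 59982495 to 60140219). It stood at 10.2 and 12.1 CPM in control and at 110 and 103 CPM after PlaB, a change of 3.25 ± 0.21 (adjusted p = 8.14e-15). The annotation places another protein-coding gene, Gm38393, on the same strand, and it covers 27.3% of the exonic bases of Snrpn. Gm38393 stood at 60.3 and 40.9 CPM in control and at 33.2 and 33.7 CPM after PlaB, and fell by 0.60 ± 0.22 (adjusted p = 0.0217). Snrpn therefore took 14.43% and 22.86% of the counts of both genes in control, and 76.79% and 75.41% after PlaB. Summed, the pair rose from 70.5 and 53 CPM to 143 and 137 CPM, a log2 change of 1.18 (adjusted p = 2.11e-07), which is smaller than that of Snrpn alone. Snurf, which shares the 5' part of the same locus, had 0 counts in every library.

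**Figure D1:**
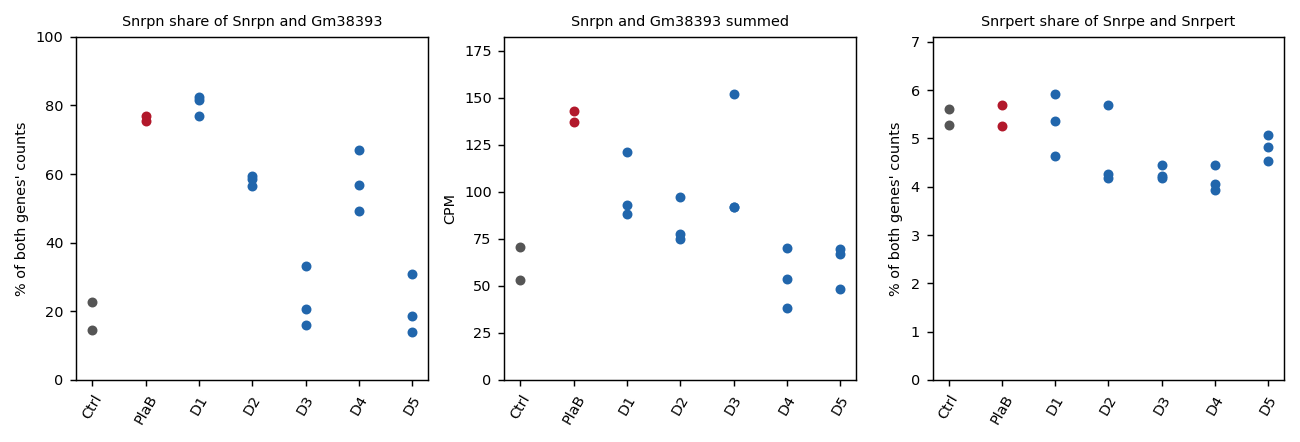
Share of Snrpn among the counts of Snrpn and Gm38393 (left, %), their summed level (middle, CPM) and the share of Snrpert among the counts of Snrpe and Snrpert (right, %), each point a library, grey control, red PlaB and blue blastoid days. The Snrpn share is 14.43% and 22.86% in control, above 75% after PlaB and on day 1, and below 34% on days 3 and 5, while the Snrpert share stays between 3.94% and 5.92%.

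Of the 6 genes of the U1 particle, 3 rose and 1 fell. Snrpc encodes the C protein, which steadies the contact with the start of the intron. It stood at 7.03 and 10.6 CPM in control and at 88.1 and 79.1 CPM after PlaB (3.24 ± 0.24, adjusted p = 1.59e-13). Snrpa, which encodes the A protein of U1 (chromosome 7, 27187005 to 27196271), stood at 10.9 and 8.34 CPM in control and at 74.9 and 45.9 CPM after PlaB. It rose by 2.64 ± 0.27 (adjusted p = 2.46e-10). Snrnp70, which encodes the large subunit that bridges to other splicing factors, stood at 29.1 and 29.6 CPM in control and at 84 and 75.8 CPM after PlaB (1.44 ± 0.19, adjusted p = 1.11e-07). The U1-associated factor gene Prpf39 fell from 159 and 146 CPM to 87.6 and 84.3 CPM (-0.83 ± 0.15, adjusted p = 2.41e-05).

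Genes of the U2 particle changed less. Snrpa1 rose by 0.61 ± 0.14 (adjusted p = 0.0003), and Sf3a1 fell by 0.59 ± 0.21 (adjusted p = 0.0181). Snrpb2 (-0.30, adjusted p = 0.0566) and Sf3a3 (-0.30, adjusted p = 0.0733) did not pass. Sf3a2 was not tested in 2D, where it had between 0 and 5 counts per library.

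In the tri-snRNP, 4 of 9 genes rose and 2 fell. Prpf8, which encodes the scaffold at the centre of the spliceosome, stood at 26.7 and 38.6 CPM in control and at 113 and 84 CPM after PlaB (1.59 ± 0.20, adjusted p = 3.47e-08). Prpf31, a component of U4/U6, went from 28.6 and 37.4 CPM to 83.5 and 107 CPM (1.53 ± 0.19, adjusted p = 3.07e-08). Prpf3 rose by 1.10 ± 0.19 (adjusted p = 7.65e-06) while its U4/U6 partner gene Prpf4 fell from 76.8 and 73.3 CPM to 31.9 and 33.7 CPM (-1.19 ± 0.20, adjusted p = 3.87e-06). The helicase gene Snrnp200 rose by 0.61 ± 0.18 (adjusted p = 0.00439), and Prpf6, whose product links U5 to U4/U6, fell by 0.54 ± 0.20 (adjusted p = 0.0249).

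The further PRPF genes included the member with the highest fold change. Prpf19 encodes the ubiquitin ligase of the complex that carries its name. It had 7 and 4 counts in the control libraries (1.7 and 1.01 CPM) and 40 and 49 counts in the PlaB libraries (16.4 and 18.1 CPM), a change of 3.63 ± 0.50 (adjusted p = 1.39e-07). Its baseline rests on few counts. Prpf38a fell from 243 and 236 CPM to 161 and 151 CPM (-0.62 ± 0.14, adjusted p = 0.000279). The kinase gene Prpf4b fell from 145 and 160 CPM to 81.9 and 94.7 CPM (-0.79 ± 0.15, adjusted p = 5.21e-05).

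Of the minor spliceosome, which removes a rare class of introns, Snrnp25 and Snrnp48 moved in opposite directions. Snrnp25 went from 43.1 and 38.9 CPM to 104 CPM in both PlaB libraries (1.34 ± 0.18, adjusted p = 6.33e-08). Snrnp48 went from 142 and 128 CPM to 51.2 and 43.6 CPM, the largest fall of any tested member (-1.51 ± 0.17, adjusted p = 2.87e-09). Snrnp35 had between 2 and 10 counts per library in 2D and was not tested.

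Among the 8 LSm ring genes, 2 rose and 5 fell. Lsm4, a subunit of both rings, stood at 21.3 and 26.3 CPM in control and at 241 and 154 CPM after PlaB (3.05 ± 0.20, adjusted p = 3.05e-13). Lsm1, which is particular to the cytoplasmic ring, fell from 120 and 133 CPM to 43.4 and 54.4 CPM (-1.37 ± 0.17, adjusted p = 2.83e-08). Lsm8, its counterpart in the nuclear ring, fell from 406 and 376 CPM to 231 and 176 CPM (-0.94 ± 0.14, adjusted p = 6.17e-07). Lsm3, shared by both rings, fell from 201 and 163 CPM to 78.6 and 84.7 CPM (-1.15 ± 0.16, adjusted p = 1.08e-07). Rings with common subunits thus had genes that changed in opposite directions. Lsm14a, a gene of cytoplasmic RNA granules, fell from 132 and 123 CPM to 62.2 and 80.6 CPM (-0.83 ± 0.16, adjusted p = 6.43e-05). Lsm10 of the U7 particle, which processes histone messenger RNA, did not pass (-0.59, adjusted p = 0.108), and Lsm11 was not tested in 2D.

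**Figure D2:**
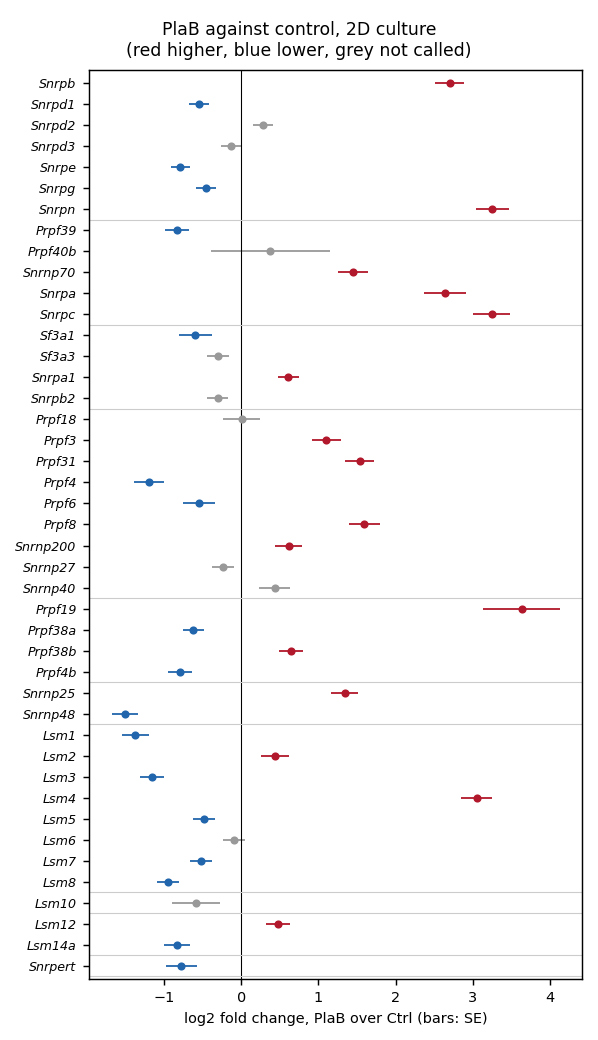
Log2 fold change of PlaB over control for the tested members listed on the vertical axis (points, with SE as bars), in blocks by particle from the Sm ring at the top to Snrpert at the bottom; red rose, blue fell, grey did not pass. In most blocks red and blue stand side by side, from 3.63 for Prpf19 to -1.51 for Snrnp48.

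Members that rose had a higher GC content in their principal transcript, with a median of 52.76% (16 genes), than members that fell, with 44.79% (17 genes). Over the 44 tested members, which share their libraries, Spearman's correlation of the log2 fold change with GC content was 0.60, and over 11113 tested genes with a GC value it was 0.443. With the GC trend of each library removed, 16 members rose and 10 fell, and 14 and 9 of these were among the calls above. Of all 11183 tested genes, 2875 rose and 2211 fell in that setting. The changes became 1.66 for Snrpb (adjusted p = 1.1e-09), 1.61 for Snrpa (adjusted p = 6.68e-06), 2.7 for Snrpc (adjusted p = 5.9e-11), 1.81 for Lsm4 (adjusted p = 8e-10) and 3.64 for Snrpn (adjusted p = 1.22e-14). Among members named with library values, Snrnp70 (0.31, adjusted p = 0.179), Snrpe (-0.26, adjusted p = 0.0818), Prpf39 (-0.18, adjusted p = 0.319), Prpf4b (-0.19, adjusted p = 0.311) and Prpf38a (-0.20, adjusted p = 0.223) no longer passed. Snrpd1 (-0.05, adjusted p = 0.78) and Snrpg (-0.13, adjusted p = 0.438) did not pass either. Lsm10 (-1.27, adjusted p = 0.000909) passed in this setting, and so did Snrpb2, with the direction turned (0.35, adjusted p = 0.0264). In all, 9 of 44 members turned. Lsm2 (from 0.43 to -0.11, adjusted p = 0.62) and Lsm5 (from -0.48 to 0.17, adjusted p = 0.315) had passed before. Snrpd2 (-0.0095, adjusted p = 0.96) and Snrpd3 (0.097, adjusted p = 0.574) passed in neither setting. Of 18 tested feeder markers, 15 rose after PlaB, with a median log2 change of 0.968. The mitochondrial share was higher and the stem cell marker sum lower in both PlaB libraries than in either control library. Single stem cell markers differed. Sox2 was slightly lower (96.2 and 96.9 CPM after PlaB, 105 and 100 CPM in control). Nanog overlapped (182 and 228 CPM after PlaB, 191 and 173 CPM in control). The part of the mitochondrial share and of these markers in the changes of members was not tested.

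**Figure D3:**
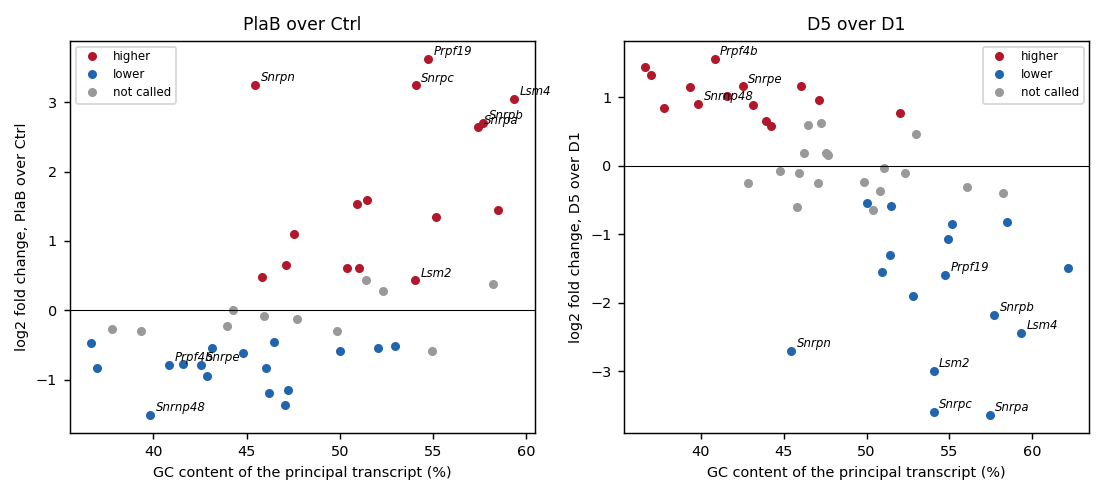
Log2 fold change against GC content of the principal transcript (%) for PlaB over control (left) and day 5 over day 1 (right); each point is a tested member, red higher, blue lower, grey not passed. GC-rich members stand high on the left and low on the right, and Snrpn, at 45.47% GC, lies away from both trends.

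Other genes of the same pathway were counted from lists that hold no member. Their values keep the GC trend. Of all tested genes, 25.9% rose and 25.8% fell after PlaB. Of 21 tested proteins of U2, U5 and the tri-snRNP, 13 rose after PlaB and 3 fell. The list holds 6 genes of the SF3B complex, which PlaB binds, and they did not all move one way. Sf3b5 rose by 3.30 ± 0.17 (adjusted p = 1.3e-16), Sf3b3 by 1.57 ± 0.14 (adjusted p = 1.17e-11), Sf3b4 by 1.22 ± 0.38 (adjusted p = 0.00705) and Sf3b1 by 0.29 ± 0.12 (adjusted p = 0.0496). Sf3b6 fell by 0.65 ± 0.13 (adjusted p = 4.66e-05), and Sf3b2 (0.34, adjusted p = 0.0786) did not pass. Of 16 genes of snRNP assembly and import, 5 rose and 5 fell. Smn1, whose product loads Sm rings onto small nuclear RNA, rose by 3.06 ± 0.26 (adjusted p = 5.56e-12). Gemin6 of the same complex fell by 2.75 ± 0.16 (adjusted p = 5e-16), and Tgs1, which caps the small nuclear RNAs, fell by 2.36 ± 0.19 (adjusted p = 7.7e-13). Of 17 genes of the PRP19 complex and of splicing helicases, 5 rose and 3 fell, and of 6 further U11/U12 genes 1 passed, a fall.

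Levels across all 7 groups were compared per kilobase of the principal transcript, on CPM scaled over all 19 libraries (mean ± SD). In control cells the order of the Sm ring genes was Snrpe at 2410 ± 300 CPM per kb (n = 2), Snrpd1 at 1180 ± 87.6, Snrpg at 630 ± 112, Snrpd2 at 245 ± 6.26, Snrpd3 at 95.1 ± 1.71, Snrpb at 43.3 ± 15 and Snrpn at 5.70 ± 0.766. On blastoid day 1 Snrpe stood at 935 ± 108 CPM per kb (n = 3), followed by Snrpd1 at 490 ± 81.4 and Snrpb at 457 ± 64.4, whose spreads overlap. Snrpg followed at 334 ± 60.4, Snrpd2 at 219 ± 6.85, Snrpd3 at 83.1 ± 10.4 and Snrpn at 39.0 ± 5.29. Snrpb and Snrpe had nearly opposite orders of groups. By mean CPM, Snrpb was highest on day 1 (531), followed by day 4 (405), PlaB (326), day 2 (302), day 3 (122), day 5 (112) and control (50.3). Snrpe was highest on day 3 (1510), followed by control (1210), day 5 (998), day 4 (883), day 2 (848), PlaB (706) and day 1 (471). Neighbours in these orders, such as PlaB and day 2 for Snrpb or day 4 and day 2 for Snrpe, overlap in their libraries. None of these levels is corrected for the GC trend. Snrpb has 57.71% GC and Snrpe 42.54%, and the GC index reached its highest value on day 1 and was low in control and on day 3. The part of GC content in these orders was not tested. Snrpf had 20 counts in all 19 libraries together and passed no filter. Of its exonic bases 65.9% are overlapped by Ccdc38 on the opposite strand, and its processed pseudogene Gm13092 held 629 counts.

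**Figure D4:**
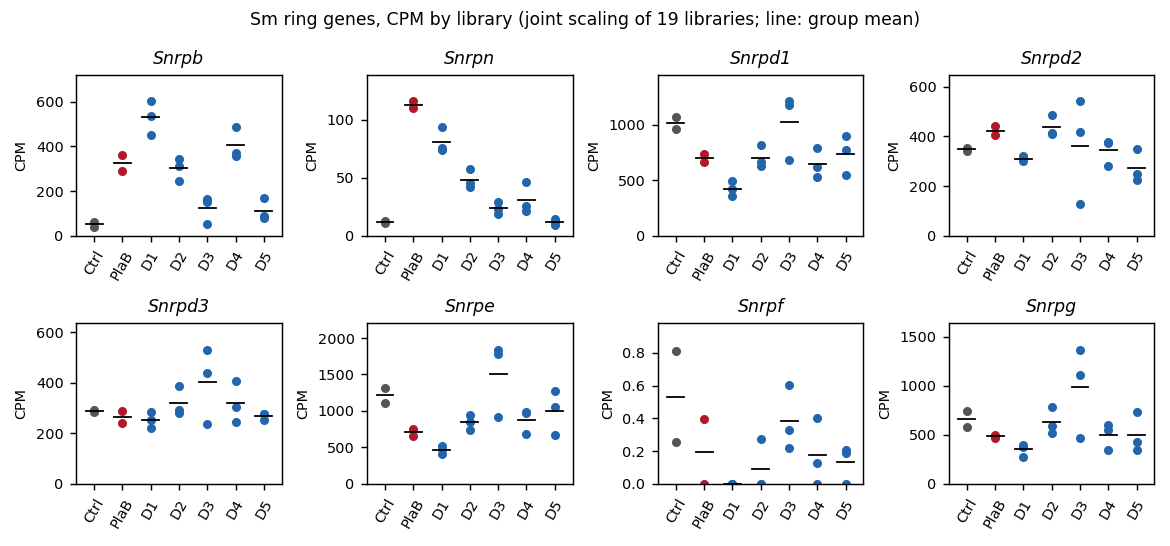
CPM of the 8 Sm ring genes in each library (points) with the group mean (line), on the joint scale of 19 libraries; grey control, red PlaB, blue blastoid days 1 to 5. Snrpb is highest on day 1 (mean 531) and lowest in control (50.3), Snrpe runs in nearly the opposite order, and Snrpf stays below 1 CPM. Values are not corrected for the GC trend.

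The blastoid series asked how the genes changed over 5 days of 3D culture. The labels list the PlaB treatment for every blastoid library, so days in 3D culture and time since PlaB cannot be told apart. Of 48 tested members, 34 differed between days at all, and 68.0% of 15121 tested genes did. The 34 are 70.8% of the tested members, near the share of all genes. The smallest adjusted p-values were those of Snrpc (3.63e-10), Snrpa (1.09e-09) and Lsm2 (2.77e-07). Sm ring, U1 and LSm genes were all among those called, with 5 of 7, 6 of 6 and 5 of 8 tested. With the GC trend removed, 28 members differed, 24 of them among the 34, and 9828 of 15121 genes differed. The day comparisons share libraries with each other, so their values stand side by side.

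Between days 1 and 3, 17 members rose (23.4% of all genes rose) and 14 fell (23.8% fell, and 47.3% changed either way). These are 35.4% and 29.2% of the tested members. Snrpc dropped from 162, 156 and 191 CPM on day 1 to 11.5, 12.2 and 10 CPM on day 3 (-3.91 ± 0.27, adjusted p = 1.12e-08). Snrpa dropped from 201, 190 and 190 CPM to 32.9, 23.6 and 16.7 CPM (-2.98 ± 0.23, adjusted p = 2.77e-08). Snrpb dropped from 594, 455 and 535 CPM to 168, 150 and 55.4 CPM (-2.08 ± 0.33, adjusted p = 5.63e-05). All libraries of day 3 lay below those of day 1 for these 3 genes, which had risen after PlaB. Snrpn dropped from 72.7, 75.9 and 93.4 CPM to 30.3, 19 and 24.4 CPM (-1.71 ± 0.27, adjusted p = 5.87e-05). Gm38393 rose at the same time (2.11 ± 0.31, adjusted p = 2.31e-05), and Snrpn and Gm38393 summed had a change of 0.14 (adjusted p = 0.666), so the fall of Snrpn did not hold for the pair.

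Other ring genes rose from day 1 to day 3. Snrpe stood at 406, 520 and 480 CPM on day 1 and at 1890, 1790 and 963 CPM on day 3 (1.72 ± 0.28, adjusted p = 7.87e-05). Snrpd1 stood at 348, 418 and 491 CPM and then at 1240, 1190 and 717 CPM (1.32 ± 0.26, adjusted p = 0.000429). Day 3 replicate 3 was the lowest of its group for both genes, yet above every day 1 library. Lsm5, a ring subunit with 36.64% GC, rose from 77.2, 80.2 and 102 CPM to 368, 350 and 315 CPM (1.99 ± 0.28, adjusted p = 1.56e-05). Snrpb2, which encodes a U2 protein that binds its RNA, rose from 121, 124 and 199 CPM to 470, 466 and 495 CPM (1.69 ± 0.27, adjusted p = 6.37e-05). Snrpg (1.52 ± 0.35, adjusted p = 0.00135) and Snrpd3 (0.71 ± 0.26, adjusted p = 0.03) also rose.

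Risers had a median GC content of 43.12% and fallers of 54.83%, and Spearman's correlation of the change with GC content was -0.733 over 48 members and -0.566 over 15016 genes. Removing the GC trend moved the median of all genes from 0.03 to -0.11, and then 7 members rose and 13 fell, 6 and 10 of them among the earlier calls. Of all 15121 tested genes, 2385 then rose and 3347 fell, so the share of members that rose was no longer above that of all genes. Snrpc (-3.33), Snrpa (-1.94), Snrpb (-1.04), Snrpe (1.04), Snrpd1 (0.70), Lsm5 (0.87) and Snrpb2 (0.76) still passed, at adjusted p-values from 4.8e-08 (Snrpc) to 0.0397 (Snrpd1) by edgeR, while Snrpd3 (0.40, adjusted p = 0.215) did not. The direction turned for 8 of 48 members, of which 4 had passed before, among them Snrnp70 (from -0.97 to 0.25), Prpf4b (from 0.86 to -0.018) and Snrnp27 (from 0.55 to -0.013). Prpf39 (from 0.43 to -0.71, adjusted p = 0.00725) passed only afterwards. The stem cell marker sum was higher and the trophectoderm marker sum lower in every day 3 library than on day 1. Single markers did not all follow the sums. Sox2 rose from 51.7, 43.9 and 46.6 CPM to 117, 156 and 277 CPM. Nanog fell from 244, 311 and 379 CPM to 162, 165 and 138 CPM. The trophectoderm marker Gata3 rose from 2.75, 3.3 and 2.21 CPM to 6.44, 7.26 and 8.84 CPM. The part of these markers in the changes of members was not tested. Total-count scaling moved the median of all genes by more than 0.1, from 0.03 to -0.23, and then 10 members rose and 18 fell. Of all genes, 2424 rose and 4555 fell with that scaling.

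Between days 3 and 5, 4 members rose (19.2% of all genes) and 9 fell (17.8%, and 37.0% either way). Lsm2, a subunit of both LSm rings, fell from 125, 97.7 and 58.6 CPM to 28.1, 26.2 and 44.6 CPM (-1.50 ± 0.26, adjusted p = 0.000134). Lsm8 fell from 481, 410 and 244 CPM to 201, 203 and 142 CPM (-1.06 ± 0.24, adjusted p = 0.00179). Prpf31 fell from 59.2, 57.3 and 38.4 CPM to 26.4, 27 and 34 CPM (-0.83 ± 0.21, adjusted p = 0.00399). Snrpa fell from 32.9, 23.6 and 16.7 CPM to 14.4, 16.2 and 16.1 CPM (-0.66 ± 0.23, adjusted p = 0.0283). No day 5 library reached the lowest day 3 library for these 4 genes. Lsm14b was near the limit of detection, with 3.39, 4.08 and 6.98 CPM on day 3 and 0.429, 0 and 1.16 CPM on day 5 (adjusted p = 0.00153). Snrpb, at 92.5, 85.6 and 171 CPM on day 5, overlapped with day 3 (-0.10 ± 0.32, adjusted p = 0.843).

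The 4 risers of this step were Prpf39, Prpf4b, Prpf6 and Prpf40b. Prpf39 rose from 105, 98.6 and 123 CPM to 264, 207 and 134 CPM (0.89 ± 0.24, adjusted p = 0.00628), and Prpf4b from 156, 165 and 224 CPM to 355, 317 and 216 CPM (0.71 ± 0.21, adjusted p = 0.0138). Prpf6 stood at 77, 77.1 and 38.4 CPM and then at 85.6, 153 and 89.1 CPM (0.76 ± 0.28, adjusted p = 0.0376). Prpf40b, a U1-associated gene, was low throughout, at 2.03, 2.87 and 1.16 CPM on day 3 and at 2.79, 5.02 and 7.18 CPM on day 5 (1.26 ± 0.42, adjusted p = 0.023). Prpf4b and Prpf40b overlapped between the days. These counts depended on single libraries. Without day 3 replicate 3, 19 members fell and 2 rose, while 2845 of 15729 genes fell and 3132 rose. Without day 3 replicate 1, 5 members and 2533 of 15896 genes fell. Without day 3 replicate 2, 5 members and 2308 of 15840 genes fell. Without day 5 replicate 1, 4 members fell and 2 rose, while 2280 of 15837 genes fell and 2547 rose. The call of Snrpa was lost without any of day 3 replicates 1 and 2 and day 5 replicates 1, 2 and 3, with adjusted p between 0.0556 and 0.216. With the GC trend removed, 4 members rose and 10 fell, 3 and 8 of them among the earlier calls. Of all 15121 genes, 3148 then rose and 2784 fell. Snrpa (-0.90, adjusted p = 0.00176) passed in that setting by edgeR, while Prpf40b (0.96, adjusted p = 0.0536) did not. With only the libraries of days 3 and 5 fitted, Snrpa (-0.70, adjusted p = 0.102) and the 4 risers (0.64 to 1.22, adjusted p from 0.0512 to 0.131) did not pass. Trophectoderm markers were higher in sum in every day 5 library than on day 3, and their part was not tested. Each of the 4 risers also lost its call without some libraries: Prpf39 without day 5 replicate 1 (adjusted p = 0.0522), Prpf4b without day 3 replicate 1 or 2 or day 5 replicate 1 (at most 0.074), Prpf40b without day 3 replicate 1 or 3 or day 5 replicate 3 (at most 0.157), and Prpf6 without day 3 replicate 3 or day 5 replicate 2 (at most 0.256).

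From day 1 to day 5, 14 members rose (25.5% of all genes rose) and 16 fell (25.5% fell), with a median log2 change of -0.18 against -0.02 over all genes. Snrpa reached 14.4, 16.2 and 16.1 CPM on day 5, from 201, 190 and 190 CPM (-3.64 ± 0.24, adjusted p = 7.86e-09). Snrpc reached 11.6, 14.2 and 16.3 CPM, from 162, 156 and 191 CPM (-3.59 ± 0.26, adjusted p = 1.45e-08). Lsm2 went from 239, 269 and 285 CPM to 28.1, 26.2 and 44.6 CPM (-3.0 ± 0.27, adjusted p = 5.96e-08). The 2 groups were far apart for all 3 genes. Lsm4 fell from 233, 185 and 208 CPM to 27.9, 24.8 and 62.3 CPM (-2.44 ± 0.33, adjusted p = 5.97e-06). Snrpb ended at 92.5, 85.6 and 171 CPM, from 594, 455 and 535 CPM (-2.18 ± 0.33, adjusted p = 2.46e-05). Prpf31 ended at 26.4, 27 and 34 CPM, from 92.9, 87 and 78.1 CPM (-1.56 ± 0.21, adjusted p = 5.79e-06). Snrpn ended at 9.66, 12.5 and 14.9 CPM (-2.7 ± 0.29, adjusted p = 5.03e-07), and summed with Gm38393 its change was -0.72 (adjusted p = 0.0233).

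The strongest riser was Prpf4b, from 113, 84.2 and 104 CPM to 355, 317 and 216 CPM (1.56 ± 0.22, adjusted p = 9.24e-06). Lsm5 rose from 77.2, 80.2 and 102 CPM to 267, 310 and 127 CPM (1.44 ± 0.28, adjusted p = 0.000245). Prpf39 rose from 69.1, 75 and 97.2 CPM to 264, 207 and 134 CPM (1.33 ± 0.24, adjusted p = 0.000152). For these genes day 5 replicate 3 was the lowest day 5 library and still lay above day 1. Lsm14a rose from 47.2, 63.7 and 76.4 CPM to 174, 130 and 112 CPM (1.16 ± 0.23, adjusted p = 0.000374), and Prpf38b from 66.9, 66.7 and 64.4 CPM to 127, 141 and 117 CPM (0.96 ± 0.20, adjusted p = 0.000543). Snrpb2 rose from 121, 124 and 199 CPM to 389, 358 and 238 CPM (1.15 ± 0.27, adjusted p = 0.00145). Snrpe (1.15 ± 0.28, adjusted p = 0.00192), Snrpd1 (0.88 ± 0.26, adjusted p = 0.00812) and Snrnp48 (0.91 ± 0.24, adjusted p = 0.00423) stayed above day 1, as they had been on day 3.

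**Figure D5:**
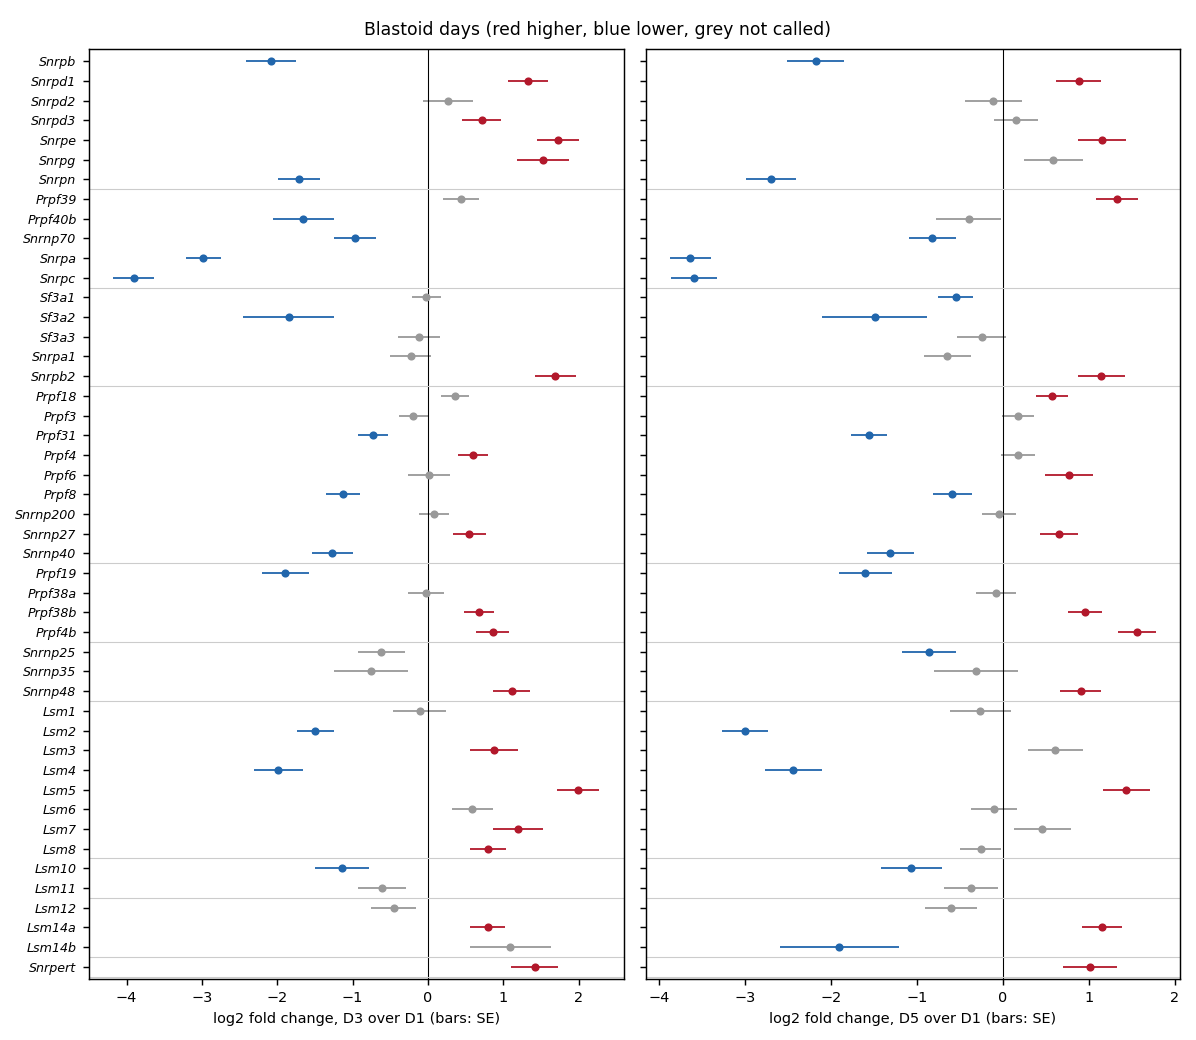
Log2 fold change over day 1 on day 3 (left) and day 5 (right) for the tested members listed on the vertical axis (points, SE as bars), in blocks by particle; red higher, blue lower, grey not passed. Snrpa, Snrpc, Lsm2, Lsm4, Snrpb and Snrpn lie far to the left on both days, and both panels share the day 1 libraries.

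GC content again went with direction. The 16 members that fell had a median of 54.40% GC and the 14 that rose 42.06%, and Spearman's correlation was -0.757 over 48 members and -0.351 over 15016 genes. With the GC trend removed 6 rose and 14 fell, and 6 and 11 of these were among the earlier calls. Of all 15121 tested genes, 3475 then rose and 4035 fell, so the share of members that rose was below that of all genes. Snrpa (-2.84, adjusted p = 7.53e-09), Snrpc (-3.20, adjusted p = 1.32e-08), Lsm4 (-1.52, adjusted p = 9.17e-05), Snrpb (-1.40, adjusted p = 0.000311) and Prpf4b (0.93, adjusted p = 0.000163) still passed, while Snrpb2 (0.51, adjusted p = 0.0802), Snrpe (0.58, adjusted p = 0.105), Snrpd1 (0.36, adjusted p = 0.264) and Snrnp48 (0.26, adjusted p = 0.222) did not. The direction turned for 8 of 48 members, and of these only Snrnp70 (from -0.82 to 0.12, adjusted p = 0.677) had passed before. Total-count scaling moved the median of all genes from -0.02 to -0.35, and then 8 members rose and 19 fell. Of all genes, 2623 rose and 5145 fell with that scaling. Without day 1 replicate 1, 9 members and 3106 of 15757 genes rose. Without day 5 replicate 1, 9 members and 3230 of 15837 genes fell. Of 18 feeder markers, 14 fell between these days, and the trophectoderm marker sum was higher in every day 5 library. Their part in these changes was not tested. The pathway lists were counted with the GC trend kept, where 25.5% of all genes rose and 25.5% fell. On the assembly list, 1 of 16 genes rose and 9 fell, among them Gemin8 (-2.92 ± 0.38, adjusted p = 3.42e-06) and Smn1 (-1.85 ± 0.30, adjusted p = 3.81e-05). Of 22 other proteins of U2, U5 and the tri-snRNP, 5 rose and 7 fell, of 17 on the PRP19 and helicase list 3 rose and 3 fell, and of 6 further U11/U12 genes 2 rose and 1 fell.

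The last comparison set blastoids of day 1 against 2D cells after PlaB. Culture, time since the PlaB treatment and count table cannot be told apart here, and the PlaB and day 1 libraries also serve in the comparisons above. In this fit of all 19 libraries 12 members were higher on day 1 (21.9% of 16304 genes) and 5 lower (17.0%), of 48 tested. Levels here are CPM scaled over all libraries, with mean ± SD. Snrpa stood at 79.1 and 49 CPM after PlaB and at 204, 189 and 190 CPM on day 1 (1.60 ± 0.26, adjusted p = 3.35e-05). Lsm2 stood at 92 and 71.9 CPM and at 243, 268 and 285 CPM (1.70 ± 0.28, adjusted p = 4.81e-05). Sf3a1, a subunit of the complex that helps U2 bind the branch point, stood at 35 and 35.2 CPM and at 92, 81.1 and 85.3 CPM (1.30 ± 0.23, adjusted p = 0.000107). None of these genes overlapped between the groups. Both U7 genes were higher on day 1, Lsm10 at 62.3 ± 15.6 CPM against 15 ± 5.03 (adjusted p = 0.00081) and Lsm11 at 8.87, 7.05 and 10.5 CPM against 0.432 and 1.58 CPM (adjusted p = 0.000309). Sf3a2 had 0 and 2 counts in the PlaB libraries and 68, 36 and 30 on day 1 (adjusted p = 0.00428), and Plekhj1 on the opposite strand overlaps 16.1% of its exonic bases.

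The 5 lower members included Prpf38b, with 124 and 126 CPM after PlaB and 67.9, 66.5 and 64.5 CPM on day 1 (-0.91 ± 0.21, adjusted p = 0.00129). Snrpb2 had 302 and 258 CPM and then 123, 124 and 199 CPM (-0.91 ± 0.27, adjusted p = 0.0102). Snrnp27 had 142 and 151 CPM and then 78.9, 78.5 and 114 CPM (-0.69 ± 0.23, adjusted p = 0.0203). Lsm5 had 153 and 152 CPM and then 78.3, 79.9 and 102 CPM (-0.81 ± 0.28, adjusted p = 0.0232). The fifth was Snrpd1 (-0.73 ± 0.27, adjusted p = 0.0315). Snrpb, at 363 and 289 CPM after PlaB and 602, 453 and 536 CPM on day 1, did not overlap but did not pass (0.70 ± 0.36, adjusted p = 0.124). It passed with total-count scaling (1.00, adjusted p = 0.0215), with no low-count filter (0.79, adjusted p = 0.0239) and when only these 2 groups were fitted (0.56, adjusted p = 0.028), and its other values under alternatives did not pass.

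With the GC trend removed 14 members were higher and 1, Prpf38b (-0.75, adjusted p = 0.00342), was lower. Of all 16304 tested genes, 3688 were then higher and 2662 lower. Total-count scaling moved the median of all genes from 0.14 to 0.43, and then 18 members were higher and 1 lower. Of all genes, 4810 were higher and 1954 lower with that scaling. Without PlaB replicate 1 or 2, which left 1 PlaB library, the median log2 change of members was 0.18 or 0.086. That of all genes was then 0.22 or 0.27. Without day 1 replicate 1, 2 members and 2282 of 16020 genes were lower. Without day 1 replicate 2, 2 members and 2376 of 16437 genes were lower. Snrpb2 lost its call without PlaB replicate 1 (adjusted p = 0.118), and Snrnp27 and Lsm5 did without either PlaB library and without day 1 replicate 1 or 2 (at most 0.157 and 0.122). Of 18 feeder markers 17 were lower on day 1, as were the mitochondrial share and the stem cell marker sum in every library, and the trophectoderm marker sum was higher. Single markers did not all follow the sums. Sox2 was lower on day 1 (51.7, 43.9 and 46.6 CPM, against 96.2 and 96.9 after PlaB). Nanog was higher (244, 311 and 379 CPM, against 182 and 228), and Gata3 overlapped (2.75, 3.3 and 2.21 CPM, against 2.46 and 1.48). The part of these differences was not tested, and marker levels were scaled within 2D culture or within blastoids. The pathway lists were counted with the GC trend kept, where 21.9% of all genes were higher and 17.0% lower. Of 16 assembly genes 11 were higher and the others did not pass. The 11 included Gemin6 (2.52 ± 0.35, adjusted p = 4.06e-06), Coil (2.03 ± 0.29, adjusted p = 7.72e-06) and Tgs1 (1.84 ± 0.23, adjusted p = 1e-06). Of 22 other proteins of U2, U5 and the tri-snRNP, 5 were higher and 2 lower, of 17 on the PRP19 and helicase list 6 were higher and 1 lower, and of 6 further U11/U12 genes 1 was higher and 3 lower.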

How the data were processed

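The authors deposited unnormalized counts in 2 tables of 54352 symbols each, the first from 2D culture and the other from blastoids. Columns were matched to the 19 libraries by their titles, and 0 columns were left over. STAR 2.7.10b, HTSeq 0.13.5 and the build mm10 are named in the submitters' processing notes. Which annotation and strand setting were used for counting is not given in the sources, so genes that overlap have uncertain counts. Poly(A) RNA was processed with Smart-seq2, per the labels. Library totals are in the report. No libraries were merged, since chi-square per degree of freedom between replicates was 3.84 to 75.7.

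Members and gene lists were chosen with earlier results of these data known. Symbols were matched to GENCODE M21 (GRCm38): 53663 matched 1 gene, 112 several and 577 none, and all 49 members matched. Length and GC content are those of the principal transcript (APPRIS), used in place of the longest one, which often retained introns. Copies were sought with BLAST+ 2.17.0. Promoter windows come from RefSeq (GRCm38.p6).

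Differential expression was tested with edgeR 4.0.16 (R 4.3.3): TMM scaling, the filterByExpr filter (count 10, total 15), robust quasi-likelihood fits, and Benjamini-Hochberg adjustment over all tested genes at 0.05. The 4 libraries of 2D culture, the 15 of blastoids, and for day 1 against PlaB all 19, were each fitted together. The biological coefficient of variation was 0.127, 0.258 and 0.25. The code was tested on simulated counts. Members named with library values were Snrpb and Snrpa, and those with the smallest adjusted p in each direction: 10 after PlaB, 6 for day 5 against day 1 and 4 in the other comparisons. A fixed set of subunits was named with its fitted change whether or not it passed. Gm38393, Gm8186 and the pathway genes given with values were chosen after their values were seen.

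Alternatives were total-count and RLE scaling, no low-count filter, DESeq2 1.42.0, a replicate block, a GC trend per library removed (lowess of log2 CPM deviations, prior count 2), only the libraries of the groups compared, members with copies left out, and each library left out. Summing copies, and Snrpn with Gm38393, was added after seeing the data. Some coding sequences and the values of 1 member are not reported here.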

Additional observations from a re-analysis of the deposited data

How the results depend on the processing

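Counts of members called kept within 1.5 times of the reported count with RLE size factors, DESeq2 and copies summed in every comparison. With the GC trend removed, members lower after PlaB went from 17 to 10, higher on day 3 than day 1 from 17 to 7, higher on day 5 than day 1 from 14 to 6, and lower on day 1 than after PlaB from 5 to 1. With total-count scaling these last 3 counts were 10, 8 and 1. The counts of all genes in these settings stand beside those of members in the report. With the members that have close copies left out, which leaves fewer to count, 11 were lower after PlaB, 11 higher and 11 lower on day 3 than day 1, 5 lower on day 5 than day 3, and 3 lower on day 1 than after PlaB. With no low-count filter 1 member was higher on day 5 than day 3, and 3 were lower on day 1 than after PlaB. Of all genes without this filter, 2478 of 38657 and 2408 of 39552 were. With only the libraries of the groups compared, 11 members were higher on day 3 than day 1. On day 5 against day 3, 0 were higher and 5 lower by edgeR (3 higher at an unadjusted p under 0.05, and 4 by DESeq2 on all days). On day 1, 12 were lower than after PlaB. Of all genes in these fits, 2537 of 13366 were higher on day 3 than day 1. On day 5 against day 3, 1849 of 12413 were higher and 1778 lower, and 3045 of 12565 were lower on day 1 than after PlaB. The cause of these differences was not tested.

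Replicates share only a number. Same-numbered libraries deviated from their group means with a correlation of -0.018 in 2D and between -0.262 and 0.179 in blastoids. With the replicate block, 15 members were higher and 17 lower after PlaB, and 14 and 15 on day 5 against day 1. On day 5 against day 3, 6 were lower, and 3 were lower on day 1 than after PlaB. Of all genes, 2818 of 11183 were then higher and 2836 lower after PlaB. On day 5 against day 1 it was 3662 and 3659 of 15121. On day 5, 2468 of 15121 were lower than on day 3, and 2523 of 16304 were lower on day 1 than after PlaB. Among named members, Snrpa on day 5 against day 3 (-0.64, adjusted p = 0.0501) and Lsm5 on day 1 against PlaB (-0.69, adjusted p = 0.0612) did not pass with the replicate block. With the replicate block and the GC trend removed together, 10 members and 2020 of 11183 genes were lower after PlaB. On day 3, 6 members and 2167 of 15121 genes were higher than on day 1. On day 5, 6 members and 3316 of 15121 genes were higher than on day 1. On day 1, 1 member and 2449 of 16304 genes were lower than after PlaB.

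Leaving out each library in turn gave 13 to 16 members higher and 13 to 19 lower after PlaB, and 29 to 42 that differed between blastoid days. It gave 12 to 19 higher and 13 to 16 lower on day 3 than day 1, 2 to 3 higher and 4 to 19 lower on day 5 than day 3, 9 to 14 higher and 9 to 15 lower on day 5 than day 1, and 7 to 11 higher and 1 to 5 lower on day 1 than after PlaB. Over all genes, 9586 to 10767 differed between blastoid days. On day 3 against day 1, 2548 to 3559 genes were higher and 3072 to 3712 lower. On day 5 against day 3, 2407 to 3132 were higher and 2280 to 2845 lower. On day 5 against day 1, 3106 to 3800 were higher and 3230 to 3930 lower. Where leaving out a library left 1 in a 2D group, it was assumed to vary like the others.

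With the GC trend removed the direction turned for 9 of 44 members after PlaB, 8 of 48 on day 3 against day 1, 4 of 48 on day 5 against day 3, 8 of 48 on day 5 against day 1 and 9 of 48 on day 1 against PlaB. Of these, 2, 4, 0, 1 and 0 had passed before. Outside that setting, Snrpn on day 3 against day 1 had a log2 change of 0.142 when summed with Gm38393. The rise of Gm38393 between these days is given in the report, and how reads were assigned between these overlapping genes was not tested. Snrpb on day 5 against day 3, which did not pass, had 0.179 without day 3 replicate 1, 0.055 without day 3 replicate 2, 0.049 without day 5 replicate 1 and 0.084 without day 5 replicate 2, against a lowest value of -0.484 without day 5 replicate 3. Snrpf, Sf3a2, Snrnp35, Lsm11 and Lsm14b had too few counts in 2D to be tested, and the cause was not tested.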
